A study of Homo sapiens with 20 samples.

Results

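NEFL, NEFM, NEFH, INA, SNAP25, STMN2, TUBB3, MAP2, UCHL1 and SYP, 10 of the 45372 gene symbols measured, are genes best known from neurons. They were chosen by name, with the values of HUWE1 siRNA against non-targeting (NT) siRNA in these libraries already known, and all 10 had a row in both deposited tables. HEK293T, the only line used, is an established line made from human embryonic kidney cells that express the large T antigen of SV40. HUWE1 encodes a large HECT-type ubiquitin ligase. RNA was sequenced after poly(A) selection with a stranded kit in 20 libraries, which formed 5 groups of 4 biological replicates. HUWE1 siRNA was given in 3 sets. The libraries whose labels carry no set number are called set 1 and have their own 4 NT libraries, while HUWE1 siRNA sets 2 and 3 share 4 other NT libraries. The sources used here do not state how the sets differ, the dose of siRNA or the time after its addition.

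Neurofilaments are the intermediate filaments of axons. NEFL, NEFM and NEFH are their light, medium and heavy subunits, and INA (alpha-internexin) assembles with them. TUBB3 is the beta-tubulin typical of neurons, MAP2 binds microtubules in dendrites, and STMN2 regulates microtubule growth in growing axons. SNAP25 is a SNARE protein of the presynaptic plasma membrane, SYP (synaptophysin) is a synaptic vesicle membrane protein, and UCHL1 is a deubiquitinase that is abundant in neurons. HEK293 lines are known to express some neuronal genes, neurofilament genes among them.

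To show the gene starts behind members that went different ways in set 1, the 250 bases upstream of the start are given 5′ to 3′ for INA (lower with HUWE1 siRNA), TUBB3 (higher) and UCHL1 (not called). The sequences are RefSeq's, on GRCh38.p14 and the plus strand, at chr10:103276888-103277137, chr16:89923092-89923341 and chr4:41256678-41256927. The TUBB3 window belongs to the downstream of its 2 RefSeq starts. Capitals mark the GC box GGGCGG or its reverse complement, searched on both strands.
INA: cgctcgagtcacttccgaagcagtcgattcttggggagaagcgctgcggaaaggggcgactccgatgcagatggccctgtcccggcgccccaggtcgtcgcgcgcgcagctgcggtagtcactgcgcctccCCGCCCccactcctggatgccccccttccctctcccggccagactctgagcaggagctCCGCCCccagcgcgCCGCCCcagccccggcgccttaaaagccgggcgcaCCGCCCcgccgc
TUBB3: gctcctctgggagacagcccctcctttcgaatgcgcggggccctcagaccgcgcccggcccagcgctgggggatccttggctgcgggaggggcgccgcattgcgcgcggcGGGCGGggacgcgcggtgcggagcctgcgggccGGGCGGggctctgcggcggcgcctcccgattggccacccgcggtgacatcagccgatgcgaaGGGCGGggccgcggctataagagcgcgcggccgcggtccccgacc
UCHL1: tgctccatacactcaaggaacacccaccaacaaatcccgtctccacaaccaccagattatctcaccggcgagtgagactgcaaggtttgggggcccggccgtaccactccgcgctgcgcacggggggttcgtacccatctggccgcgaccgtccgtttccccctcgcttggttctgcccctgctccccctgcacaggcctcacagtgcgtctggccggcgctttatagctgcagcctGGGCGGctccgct
INA held 4 GC boxes, all on the minus strand. TUBB3 held 3 and UCHL1 held 1, all on the plus strand, while the window of the upstream TUBB3 start held 0. SYP held 1 on one strand and 3 on the other, and the 3 windows of MAP2 held 0. A GC box was present in 42.6% of the 35116 windows of this length in the RefSeq table. The base composition was 72.8% G and C for INA, 78% for TUBB3 and 64.4% for UCHL1, against a median of 58% over all windows. Of the 10 members, 5 had a window in that table (INA, TUBB3, UCHL1, SYP and MAP2). The left part of the RE1 element, to which the repressor REST binds, was searched as TTCAGCACC on both strands. It was present in 0.288% of all windows and in none of these members' windows.

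The values are TPM, the abundance of a transcript scaled for its length and for the library total, so levels can be set beside each other between genes. In the NT libraries of set 1 the highest member was UCHL1, at 224 ± 4.81 TPM (SD, n = 4 here and for every mean that follows). NEFM followed at 150.7 ± 6.21 TPM, NEFL at 92.3 ± 3.87 TPM and INA at 24.9 ± 0.704 TPM. UCHL1 stood at percentile 99.0 and NEFM at percentile 98.2 of all 45372 symbols, of which only 16057 were high enough to be tested in set 1. TUBB3, SYP, SNAP25 and NEFH came next, at 15.1, 9.99, 4.81 and 2.30 TPM. Each of these 8 members was apart from its neighbour in this order over the 4 libraries. STMN2 at 0.510 TPM and MAP2 at 0.439 TPM overlapped each other.

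Both STMN2 and MAP2 stayed under 1 TPM in all 20 libraries. Outside the 10 members, the neuron markers ELAVL3, ELAVL4 and DCX were also under 1 TPM in every library. RBFOX3 reached at most 1.18 TPM and SYN1 at most 1.35 TPM, while SYT1, a calcium sensor of synaptic vesicles, ranged between 7.79 and 9.87 TPM. Each list of markers for kidney epithelium, glia, fibroblasts and chromaffin cells had 3 or more genes under 1 TPM in every library of each group. High levels of some neuronal genes thus stood beside near-absent levels of others.

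The order was the same at the top in the NT libraries shared by sets 2 and 3, with UCHL1 at 216 ± 25.6 TPM, NEFM at 157.7 ± 28.1 TPM and NEFL at 93.3 ± 9.08 TPM. INA at 18.4 TPM and SYP at 16.2 TPM overlapped there. NEFH was at 0.412 ± 0.180 TPM in these NT libraries, against 2.30 ± 0.305 TPM in the NT libraries of set 1. TUBB3 was at 8.29 ± 1.12 TPM in these NT libraries, against 15.1 ± 0.756 TPM in those of set 1. The tables were normalized separately, so these differences between them were not tested.

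HUWE1 itself fell to 85.0 ± 1.72 TPM in HUWE1 set 1 libraries, against 157 ± 3.57 TPM in NT libraries. It was at 94.6 ± 2.26 TPM in set 2 and 84.8 ± 5.42 TPM in set 3, against 163 ± 3.49 TPM in their NT libraries. HUWE1 RNA thus stood at 54.1%, 57.9% and 51.9% of the control mean in sets 1, 2 and 3. The adjusted p from limma was 1.69e-07 in set 1, 7.45e-06 in set 2 and 8.17e-07 in set 3. The share of TPM from mitochondrially encoded genes was 25.1 to 26.2% in HUWE1 set 1 libraries, against 24.3 to 25.8% in NT libraries. It was 15.5 to 16.4% in set 3 and 16.3 to 17.5% in set 2, against 16.6 to 18.3% in their NT libraries, and its part in the members' values was not tested. Within groups the lowest correlation between libraries was 0.980, between NT libraries 1 and 4 of the second table, which stood at opposite ends of the first component of within-group variation.

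**Figure D1:**
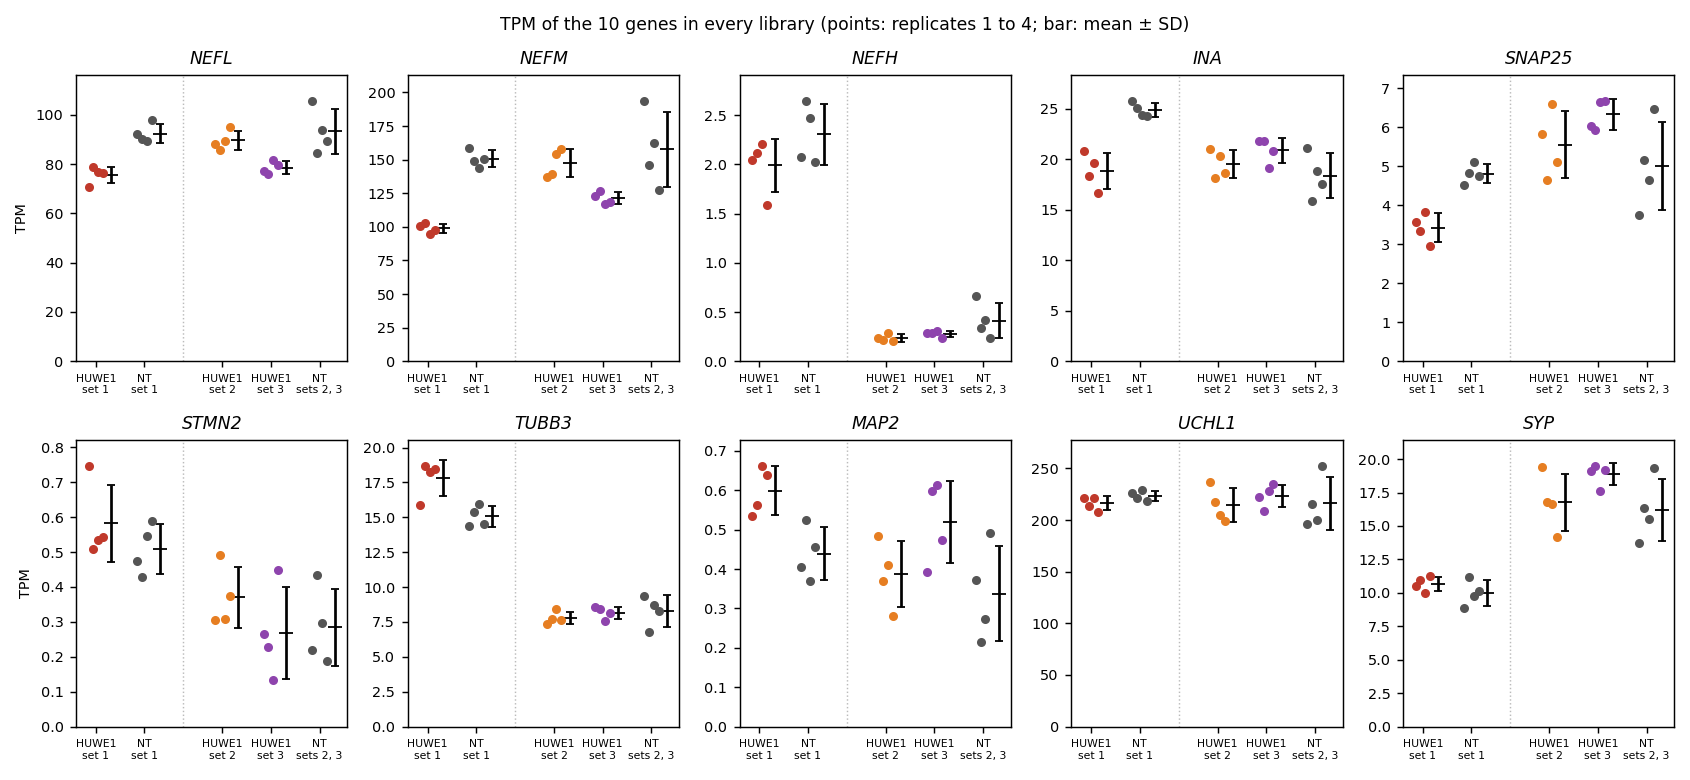
TPM of each of the 10 genes in every library (points; bars are means with SD), with the HUWE1 siRNA groups left of their NT libraries and each panel on its own axis from 0. In set 1 the HUWE1 points of NEFM, NEFL, INA and SNAP25 all lie below the NT points, and in set 3 those of NEFM and NEFL do.

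Set 1 asked how the genes stand after HUWE1 siRNA against its own NT libraries. NEFM, NEFL, INA and SNAP25 were lower and TUBB3 was higher, while NEFH, UCHL1 and SYP were not called. A gene was called at a limma adjusted p under 0.05 over all tested genes, on log2(TPM + 1). Of the 8 members tested, 4 were called lower and 1 higher, while 30.3% of the 16057 genes tested were called, 17.9% lower and 12.3% higher. The members were chosen with this contrast in view, so their calls describe them and are no evidence about neuronal genes as a group. Over all genes the higher calls made up 40.8% of calls, against 50.6% with median-of-ratios scaling and 45.8% without mitochondrially encoded genes. The split between higher and lower calls thus depends on the scaling, while the same members were called under each. STMN2 and MAP2 were too low to be tested. The median log2 fold change of the 8 members was -0.21, against -0.01 over all genes tested. In bulk RNA, fewer expressing cells and less RNA per cell cannot be told apart.

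NEFM had 101, 103, 94.3 and 97.4 TPM in HUWE1 set 1 libraries, against 159, 149, 144 and 151 TPM in NT libraries. All HUWE1 values lay below all NT values, and the mean was 65.6% of the control mean. The log2 fold change was -0.60 ± 0.04 (SE), the largest fall among the members. NEFL had 70.9, 78.7, 76.6 and 76.3 TPM in HUWE1 libraries, against 92.1, 90.1, 89.3 and 97.8 TPM in NT libraries. Its groups did not overlap either, and its log2 fold change was -0.28 ± 0.04.

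INA had 20.9, 18.3, 19.6 and 16.6 TPM in HUWE1 set 1 libraries, against 25.8, 25.1, 24.3 and 24.3 TPM in NT libraries. The groups were apart, with a log2 fold change of -0.39 ± 0.06. NEFH, the heavy subunit, had 2.05, 2.11, 2.20 and 1.59 TPM in HUWE1 libraries and 2.07, 2.65, 2.47 and 2.02 TPM in NT libraries. These overlapped, and NEFH was not called at -0.14 ± 0.10. Non-overlap with the HUWE1 libraries below was found for 4 members, NEFM, NEFL, INA and SNAP25, and for 18.4% of all genes tested.

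TUBB3 had 15.9, 18.7, 18.2 and 18.5 TPM in HUWE1 set 1 libraries, against 14.4, 15.4, 15.98 and 14.5 TPM in NT libraries. Its log2 fold change was 0.23 ± 0.06, and the lowest HUWE1 value lay within the NT range. Thus the tubulin rose where the neurofilament subunits NEFM, NEFL and INA fell. MAP2 had 0.534 to 0.662 TPM in HUWE1 libraries and 0.370 to 0.526 TPM in NT libraries, just without overlap but under the level set for testing. STMN2 had 0.508 to 0.747 TPM in HUWE1 libraries and 0.429 to 0.588 TPM in NT libraries, with overlap.

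SNAP25 had 3.56, 3.34, 3.84 and 2.97 TPM in HUWE1 set 1 libraries, against 4.52, 4.83, 5.12 and 4.76 TPM in NT libraries. It was lower in every HUWE1 library, with a log2 fold change of -0.40 ± 0.07. The vesicle protein gene SYP went the other way without being called, at 10.7 ± 0.545 TPM in HUWE1 libraries and 9.99 ± 0.978 TPM in NT libraries. UCHL1 averaged 216 ± 6.87 TPM in HUWE1 libraries and 224 ± 4.81 TPM in NT libraries, a log2 fold change of -0.05 ± 0.03. So the most abundant member was also the one with the smallest fold change among those tested.

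**Figure D2:**
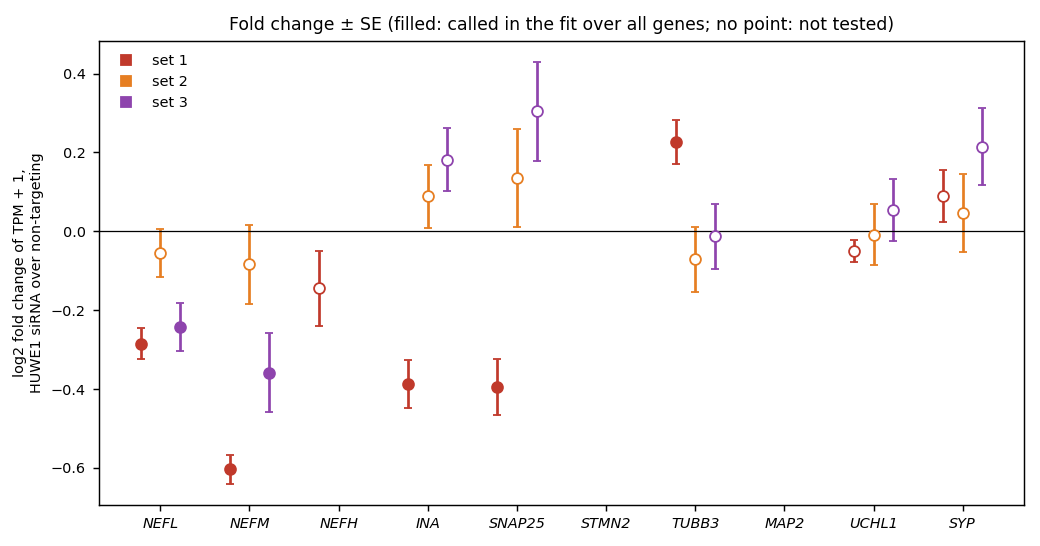
Log2 fold change of TPM + 1, HUWE1 siRNA over NT siRNA, for the tested members in sets 1, 2 and 3 (points; bars are standard errors, and filled points are called at a limma adjusted p under 0.05). NEFM and NEFL lie below 0 in all 3 sets, at -0.60 and -0.28 in set 1, while INA and SNAP25 lie below 0 in set 1 and above 0 in sets 2 and 3.

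In set 2 none of the members was called. Limma called 0 of 7 members tested and 0 members reached an unadjusted p under 0.05. Over all 15860 genes, 2 were called (0.0126%) and 1401 reached an unadjusted p under 0.05. NEFH, STMN2 and MAP2 were not tested in the second table. NEFM had 137, 139, 154 and 158 TPM in HUWE1 set 2 libraries, against 194, 146, 163 and 128 TPM in NT libraries, a log2 fold change of -0.08 ± 0.10. The NT libraries spread more widely than the HUWE1 libraries and enclosed them all. NEFL had 88.1, 85.9, 89.2 and 95.1 TPM in HUWE1 set 2 libraries, against 106, 84.5, 93.7 and 89.4 TPM in NT libraries, at -0.06 ± 0.06. The other tested members lay between -0.07 for TUBB3 and 0.14 for SNAP25, and all 7 tested members overlapped their controls, while 3.69% of all genes did not.

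Other members show the same spread of the shared controls in set 2. INA had 21.0, 18.1, 20.3 and 18.6 TPM in HUWE1 set 2 libraries, against 21.1, 15.9, 18.9 and 17.6 TPM in NT libraries. SNAP25 had 5.84, 4.66, 6.61 and 5.11 TPM in HUWE1 set 2 libraries, against 3.76, 5.15, 4.66 and 6.47 TPM in NT libraries. Neither the internexin nor the SNARE gene was lower here, whereas both were in set 1. SYP averaged 16.8 ± 2.12 TPM in HUWE1 set 2 libraries and 16.2 ± 2.32 TPM in NT libraries. TUBB3 averaged 7.80 ± 0.448 TPM in HUWE1 set 2 libraries and 8.29 ± 1.12 TPM in NT libraries, and the higher level of this tubulin in set 1 had no counterpart. UCHL1 averaged 214 ± 16.6 TPM in HUWE1 set 2 libraries and 216 ± 25.6 TPM in NT libraries.

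The low members of the second table stayed under 1 TPM throughout. NEFH had 0.209 to 0.290 TPM in set 2 and 0.234 to 0.308 TPM in set 3, against 0.234 to 0.658 TPM in NT libraries. STMN2 had 0.306 to 0.492 TPM in set 2 and 0.135 to 0.449 TPM in set 3, against 0.188 to 0.433 TPM in NT libraries. MAP2 had 0.282 to 0.484 TPM in set 2 and 0.393 to 0.614 TPM in set 3, against 0.214 to 0.491 TPM in NT libraries. The ranges of all 3 genes overlapped between HUWE1 and NT libraries.

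In set 3 the light and medium neurofilament genes were lower again, and no member was higher past the threshold. Of 7 members tested, NEFM and NEFL were called lower, and 11.6% of all 15860 genes were called, 4.15% lower and 7.45% higher. The higher calls made up 64.2% of all calls, against 48.9% with median-of-ratios scaling and 44.4% without mitochondrially encoded genes, and both members stayed called lower under these scalings. The members' median log2 fold change was 0.05, against 0.01 over all genes. NEFM had 123, 127, 117 and 119 TPM in HUWE1 set 3 libraries, against 194, 146, 163 and 128 TPM in NT libraries. All HUWE1 values lay below all NT values, narrowly so for NT library 4, and the log2 fold change was -0.36 ± 0.10. NEFL had 77.0, 75.8, 81.4 and 79.7 TPM in HUWE1 set 3 libraries, against 106, 84.5, 93.7 and 89.4 TPM in NT libraries, at -0.24 ± 0.06. Non-overlap below held for these 2 members and for 6.03% of all genes. Neither was called without NT library 1, without NT library 3, or without any single HUWE1 set 3 library, and NEFL alone was called without NT library 2 or without HUWE1 set 2 library 2 or 3. Without NT library 4, both were called with SNAP25 and SYP higher, a count of 4. With a replicate block, no filter or only the 2 groups compared, 0 members were called.

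INA and SNAP25, lower in set 1, were not lower in set 3. INA had 21.8, 21.8, 19.1 and 20.9 TPM in HUWE1 set 3 libraries, against 21.1, 15.9, 18.9 and 17.6 TPM in NT libraries, at 0.18 ± 0.08. SNAP25 had 6.05, 5.93, 6.66 and 6.69 TPM in HUWE1 set 3 libraries, against 3.76, 5.15, 4.66 and 6.47 TPM in NT libraries, at 0.30 ± 0.13. Both overlapped their controls and neither was called. SYP had 18.9 ± 0.835 TPM in HUWE1 set 3 libraries and 16.2 ± 2.32 TPM in NT libraries, at 0.21 ± 0.10, also not called. In set 3, 5 of 7 members reached an unadjusted limma p under 0.05, as did 5470 of 15860 genes. They were NEFM and NEFL, lower, and INA, SNAP25 and SYP, higher. TUBB3 was at 8.16 ± 0.436 TPM in HUWE1 set 3 libraries and 8.29 ± 1.12 TPM in NT libraries, and UCHL1 was at 223 ± 10.8 TPM in HUWE1 set 3 libraries and 216 ± 25.6 TPM in NT libraries. These 2 genes, one a tubulin and one a deubiquitinase, differed by less than the spread of the NT libraries.

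The shared NT libraries bear on each of these values in sets 2 and 3. NT library 1 was the highest of the 4 for 5 members (NEFL, NEFM, NEFH, INA and TUBB3) and the lowest for 3 (SNAP25, UCHL1 and SYP). NT library 4 was the highest for 4 (SNAP25, MAP2, UCHL1 and SYP) and the lowest for 3 (NEFM, NEFH and STMN2). The coefficient of variation of NEFM was 17.8% in these NT libraries, against 4.12% in the NT libraries of set 1. Without both of these libraries, an alternative chosen after seeing the data, NEFL and NEFM were lower and INA was higher in set 3, a count of 3.

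Sets 3 and 2 were also compared with each other directly, a contrast that leaves out the level of the shared controls. NEFM had 117 to 127 TPM in set 3 and 137 to 158 TPM in set 2, and NEFL had 75.8 to 81.4 TPM in set 3 and 85.9 to 95.1 TPM in set 2. Neither gene overlapped between the sets, which was so, with set 3 below, for 5.05% of all genes. The log2 fold change of NEFM was -0.27 ± 0.10 with a limma adjusted p of 0.219, and that of NEFL was -0.19 ± 0.06 with 0.181. Limma called 0 of 7 members and 82 of 15860 genes (0.517%), while 2 members and 2507 genes reached an unadjusted p under 0.05. With only the 2 groups fitted, NEFM was called at a limma adjusted p of 0.0323. HUWE1 was also lower in every set 3 library than in every set 2 library, at -0.16 ± 0.05 with a limma adjusted p of 0.134.

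Ratios within a library compare the subunits with each other without regard to scaling. NEFM over NEFL was 1.423, 1.303, 1.232 and 1.276 in HUWE1 set 1 libraries, against 1.72, 1.66, 1.61 and 1.54 in NT libraries. The ratio was lower in every HUWE1 library, so the medium subunit gene fell more than the light one. It averaged 1.64 ± 0.0702 in set 2 and 1.55 ± 0.104 in set 3, against 1.68 ± 0.177 in their NT libraries, with overlap. INA over NEFL was 0.283, 0.287, 0.234 and 0.262 in HUWE1 set 3 libraries, against 0.200, 0.188, 0.201 and 0.196 in NT libraries, without overlap. In set 1 that ratio overlapped, at 0.250 ± 0.0334 in HUWE1 libraries and 0.270 ± 0.0146 in NT libraries. The ratios were not tested, since they come from the contrasts that were in view.

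**Figure D3:**
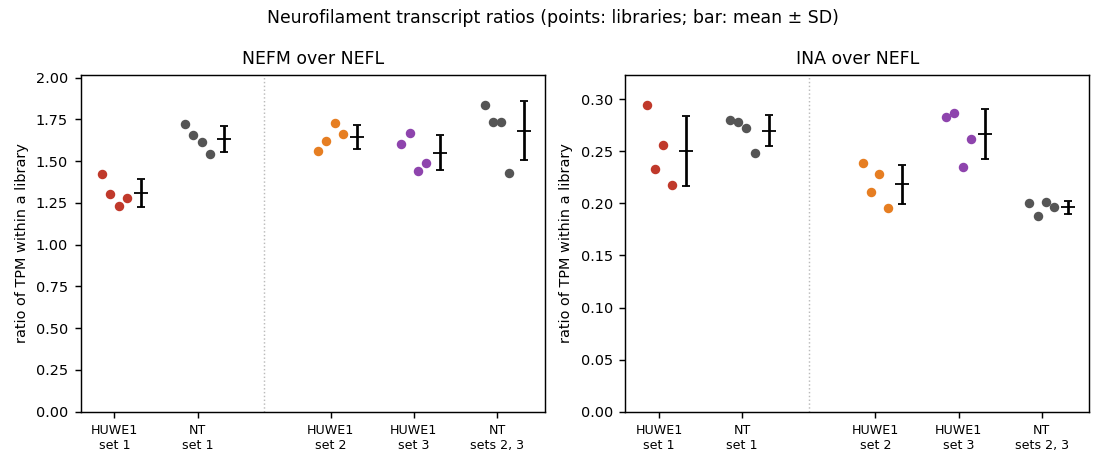
Ratios of neurofilament genes within each library (points; bars are means with SD), with HUWE1 siRNA groups left of their NT libraries and axes from 0. NEFM over NEFL is lower in all HUWE1 set 1 libraries, at 1.23 to 1.42, than in NT libraries, at 1.54 to 1.72, and INA over NEFL is higher in all HUWE1 set 3 libraries.

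NEFM and NEFL are neighbours in the genome. On hg38 (GENCODE release 29), NEFM lies on chromosome 8 at 24913012 to 24919098 on the plus strand, with 3 exons. NEFL lies at 24950955 to 24957110 on the minus strand, with 4 exons, and 31856 bases separate them. INA lies on chromosome 10 at 103277163 to 103290351 with 3 exons, NEFH on chromosome 22 at 29480230 to 29491390 with 4 exons, both on the plus strand. SNAP25 (chromosome 20), TUBB3 (chromosome 16), UCHL1 (chromosome 4), MAP2 (chromosome 2), SYP (chromosome X) and STMN2 (chromosome 8, at 79610814 to 79666175) complete the list. Beyond NEFL, the genes GNRH1, KCTD9 and DOCK5 were not called in set 1. In set 3 DOCK5 was higher, at 5.71 ± 0.162 TPM in HUWE1 libraries and 4.76 ± 0.123 TPM in NT libraries (limma adjusted p = 0.0360). The antisense gene AF106564.1 overlaps NEFM. It was not called in set 1, at 9.08 ± 0.792 TPM in HUWE1 libraries and 10.03 ± 0.801 TPM in NT libraries (-0.13, limma adjusted p = 0.180). In set 3 it was called lower, at 7.82 ± 0.964 TPM in HUWE1 set 3 libraries and 9.95 ± 1.08 TPM in NT libraries (limma adjusted p = 0.0438). AC107373.2, antisense to NEFL, was not called in any set, with 0.09 in set 1 and -0.06 in set 2. In set 3 it was at -0.40, with 2.17 ± 0.618 TPM in HUWE1 libraries and 3.19 ± 0.892 TPM in NT libraries (limma adjusted p = 0.184). The sources used here do not state whether counting used the strand, so reads from these overlapping genes may not be separable.

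Over the 20 libraries, centred within each table, NEFL and NEFM had a Pearson correlation of 0.905 on log2(TPM + 1). NEFM and INA had 0.536, and NEFM and SYP -0.660. Among 11264 genes with a mean of 5 TPM or more in every group, those most like NEFM were RCL1 (0.971) and DFFA (0.970), and those most like NEFL were LTV1 (0.941) and NME6 (0.934). INA was most like SMAD3 (0.944) and PVR (0.940), and TUBB3 most like UNC93B1 (0.886) and HCG18 (0.817). UCHL1 was most like TCP1 (0.904) and RBBP7 (0.896), and SYP most like AGPAT1 (0.943) and MED12 (0.934). These values share their libraries and the contrasts described above.

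The other genes of the cytoskeletal families were counted beside the members, and their counts stand against 12.3% of all genes higher and 17.9% lower in set 1, and 7.45% higher and 4.15% lower in set 3. Among other intermediate filament genes, 3 of 12 tested fell in set 1 and 0 rose, with a median log2 fold change of -0.12 against -0.01 over all genes, and a share of this size in so few genes is near the background. VIM (vimentin, of mesenchymal cells) fell to 485 ± 14.4 TPM in HUWE1 libraries, against 540.4 ± 14.9 TPM in NT libraries (limma adjusted p = 0.00332). LMNB2 and KRT18 fell by 0.22 and 0.14 on the log2 scale, while NES (-0.12) and PRPH (-0.03) were not called. In set 3, NES and SYNM rose by 0.19 and 0.35, of 10 tested, and VIM was at 863 ± 42.7 TPM in HUWE1 libraries and 686 ± 119 TPM in NT libraries (limma adjusted p = 0.0576). So in set 3 NES and SYNM rose where NEFM and NEFL were lower.

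Of 19 neuronal microtubule and growth cone genes tested in set 1, 4 rose and 6 fell, with a median of -0.04, while 12.3% of all genes were higher and 17.9% lower. CRMP1, a collapsin response mediator, fell to 14.8 ± 0.780 TPM in HUWE1 libraries, against 22.02 ± 0.374 TPM in NT libraries, and MAP1A fell by 0.42 on the log2 scale. TUBA1A, MARCKSL1 and STMN1 rose by 0.22, 0.22 and 0.09, and TUBB2B fell by 0.16. Of 7 other tubulins, TUBA1B, TUBA1C and TUBB4B rose and TUBG1, the gamma-tubulin of microtubule nucleation, fell by 0.43. TUBB3 therefore rose in set 1 with TUBA1A, TUBA1B, TUBA1C and TUBB4B. In set 3 TUBA1A, STMN1 and TUBA1C rose by 0.24, 0.41 and 0.28, and TUBB3 and TUBB2B were not called.

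Of 28 vesicle and synapse genes tested in set 1, 3 rose and 6 fell, a share near the 30.3% called over all genes, with a median of -0.02. VAMP2, the vesicle SNARE that pairs with SNAP25, fell to 144.7 ± 3.73 TPM in HUWE1 libraries, against 163 ± 1.59 TPM in NT libraries. UNC13A, a vesicle priming factor, fell by 0.45 on the log2 scale, and VAMP1 and SYN2 rose by 0.27 and 0.30. SNAP23, the relative of SNAP25 outside neurons, was not called in set 1 (0.06) and rose by 0.28 in set 3, and SYPL1, a relative of SYP, was called in neither. RAB3C fell by 0.31 in set 3, where 1 of 28 rose and 1 fell, while 7.45% of all genes were higher and 4.15% lower. The UCHL1 relative UCHL3 was not called in any set, nor were the other UCH deubiquitinases tested.

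Among repressors of neuronal genes, REST rose in set 1 to 41.5 ± 1.104 TPM in HUWE1 libraries, against 36.8 ± 1.98 TPM in NT libraries (limma adjusted p = 0.0101). HDAC2 fell by 0.09, so that 1 of 10 rose and 1 fell, and PTBP1 was not called in any set. REST was not called in set 3 (-0.05), where EHMT2 fell by 0.16. Of 7 neuronal RNA-binding genes, RBFOX2 rose by 0.11 and CELF3 fell by 0.33 in set 1, and none was called in set 3. Of 10 genes of neurofilament transport and neuronal kinases, KLC1 rose by 0.14 and CDK5 fell by 0.15 in set 1, and KIF5A fell by 0.20 in set 3. Over all genes, 30.3% were called in set 1 and 11.6% in set 3, and none of these lists was above those shares.

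Of 16 proneural and neuronal transcription factors tested, SOX4 and TCF4 rose in set 1, by 0.18 and 0.17 on the log2 scale. In set 3, 1 rose and 7 fell, with a median of -0.19 against 0.01 over all genes, of which 7.45% were higher and 4.15% lower. Without single libraries, the genes of this list called in set 3 ran from 0 to 10. The 7 include ID1 and its relative ID4, which hold back bHLH transcription factors, so the count is not one of proneural factors alone. ID1 was at 60.9 ± 6.34 TPM in HUWE1 set 3 libraries and 108 ± 34.9 TPM in NT libraries (limma adjusted p = 0.0260). SOX2 and ID4 fell by 0.35 and 0.29, and SOX11 rose by 0.28. Limma called 0 genes of the 13 other lists in set 2, where 10 reached an unadjusted p under 0.05. It called 46 of 139 tested in set 1 (33.1%) and 20 of 135 in set 3 (14.8%), near the 30.3% and 11.6% called over all genes. Leaving out single libraries gave 36 to 45 in set 1 and 1 to 57 in set 3. The count of 1 came without NT library 3 or without HUWE1 set 3 library 4, and 57 came without NT library 4. Of the set 3 calls named here from these lists, CHGB kept its call in all 12 fits without single libraries, and each of the others lost it in 1 or more. In set 1, KRT18, STMN1, CELF3, HDAC2, TCF4, GATA2, OLIG1 and PDGFRA lost their calls in 1 or more such fits.

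**Figure D4:**
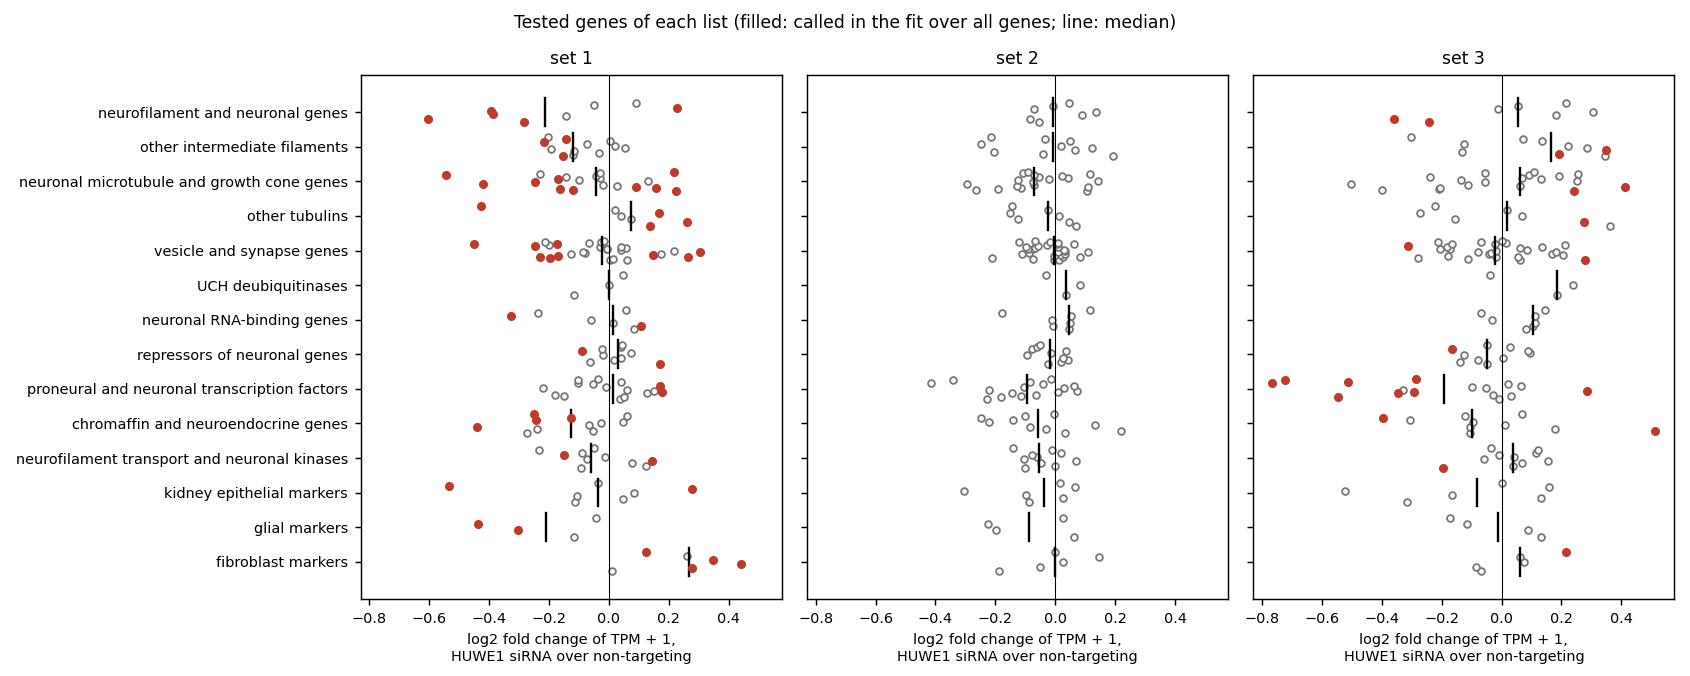
Log2 fold change of TPM + 1, HUWE1 siRNA over NT siRNA, of the tested genes of the members (top row) and of each other list in sets 1, 2 and 3 (points; filled points are called at a limma adjusted p under 0.05, and black lines mark medians). The members' median lies at -0.21 in set 1, -0.01 in set 2 and 0.05 in set 3, and set 2 has no filled point.

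Markers of other cell types were counted in set 1, where 12.3% of all genes were higher and 17.9% lower, and each list is small. Of 11 chromaffin and neuroendocrine genes tested, 4 fell (SCG3, HAND2, GATA2 and ENO2, by 0.44, 0.24, 0.13 and 0.25), with a summed level of 169 to 176 TPM in HUWE1 libraries and 185 to 195 TPM in NT libraries. Of the 17 genes on that list, 6 were under 1 TPM in every library of each group. PHOX2A was at 0 in every NT library and reached at most 0.0543 TPM in the HUWE1 libraries. Of 6 fibroblast markers, 4 rose (COL3A1, LUM, PDGFRA and FBLN1), with a sum of 69.2 to 71.4 TPM in HUWE1 libraries and 61.4 to 62.4 TPM in NT libraries. PDGFRA passed the filter only through the HUWE1 libraries, at 1.02 to 1.49 TPM, against 0.592 to 0.865 TPM in NT libraries. Its call therefore adds no support to that count. OLIG1 and OLIG2 fell among 4 glial markers, with a sum of 9.74 to 10.6 TPM in HUWE1 libraries and 12.1 to 13.5 TPM in NT libraries. OLIG1 passed the filter only through the NT libraries, at 1.09 to 1.22 TPM, against 0.651 to 0.895 TPM in HUWE1 libraries. The call of OLIG1 therefore adds no support either. Of 7 kidney epithelial markers, EPCAM rose by 0.28 and AQP1 fell by 0.53, PAX2 was not called, and the sums overlapped at 26.7 to 28.2 TPM in HUWE1 libraries and 25.7 to 27.7 TPM in NT libraries. AQP1 would not have passed the filter without the NT libraries, at 1.38 to 2.14 TPM, against 0.649 to 1.08 TPM in HUWE1 libraries. The call of AQP1 therefore adds no support. UMOD, a kidney tubule gene, was at 0 in every HUWE1 library and reached at most 0.0292 TPM in the NT libraries.

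In set 3, CHGB, a granin of secretory granules, rose by 0.51 and GATA2 fell by 0.40 among 10 chromaffin genes, whose list summed to 190.1 to 194.8 TPM in HUWE1 libraries and 199 to 212 TPM in NT libraries. FBLN1 rose by 0.21 among 5 fibroblast markers. Over all genes, 7.45% were higher and 4.15% lower in set 3. The fibroblast sum was 60.2 to 62.8 TPM in HUWE1 set 3 libraries and 52.6 to 58.4 TPM in NT libraries. Most of that sum was FBLN1, at 47.7 ± 0.826 TPM in HUWE1 set 3 libraries and 41.1 ± 4.07 TPM in NT libraries. The sum therefore mainly follows FBLN1 and shows no rise across the list. No kidney or glial marker was called in set 3, with kidney sums of 17.9 to 19.4 TPM in HUWE1 libraries and 18.04 to 24.5 TPM in NT libraries, and glial sums of 10.2 to 11.5 TPM in HUWE1 libraries and 9.68 to 15.6 TPM in NT libraries. The part of these genes in the members' values was not tested.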

How the data were processed

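The authors deposited TPM values in 2 tables, 1 with the libraries of set 1 and 1 with those of sets 2 and 3, on hg38 per the submitters' processing notes. The sources used here name no aligner, counter or annotation. The values of every library have the same sum, so the depth is unknown and counting intervals are not given. The labels call the 4 libraries of a group biological replicates.

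On log2(TPM + 1), genes that reached 1 TPM in 4 or more of a table's libraries were compared with limma 3.58.1 (R 4.3.3; moderated variance with a mean trend, two-sided, Benjamini-Hochberg over all tested genes, adjusted p under 0.05). Fold changes on this scale understate those of low genes. Set 1 was fitted on its 8 libraries, and sets 2 and 3 with their shared NT libraries in 1 fit of 12. The tables were never tested together. The procedure was tested on simulated data with independent noise and the same spread in every group. That setting leaves out the wider spread of the second table's NT libraries, so it does not bear on how stable the set 3 calls are.

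The 10 members and the 13 other gene lists were chosen with earlier results of these data known. Named from each list were up to 4 called genes with the smallest p per comparison, and REST, PTBP1, VIM, NES, PRPH, SNAP23, SYPL1, UCHL3, STMN1, TUBB2B and PAX2. The genes most like a member were ranked by Pearson correlation, with no p. Alternatives were a pseudocount of 0.1, no filter, median-of-ratios scaling, TPM without mitochondrially encoded genes, no variance trend, a replicate block, only the 2 groups compared, leaving out each library and, chosen after seeing the data, leaving out NT libraries 1 and 4 of the second table together.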

Additional observations from a re-analysis of the deposited data

Results flagged for a closer look

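INA stood at 75.7% of the control mean in set 1 and at 114% in set 3, with every set 1 HUWE1 library below its control mean and every set 3 HUWE1 library above its own. SNAP25 did likewise, at 71.2% in set 1 and 126% in set 3. These opposite directions were not tested, because the tables were normalized separately.

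TUBB3 had 15.9 TPM in HUWE1 set 1 library 1, far below the other 3 libraries of its group, which had 18.2 to 18.7 TPM. STMN2 had 0.747 TPM in the same library, far above the other 3. Chance marks about 1 in 20 groups by this measure, Dixon's ratio of a gap to the range, and 55 groups of 4 values were examined.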

How the results depend on the processing

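In set 1 the 5 member calls held under all 14 alternatives, and leaving out single libraries gave 5 members and 3640 to 4675 of all genes called, against 4863. HUWE1 kept its call in each set under every alternative run. In set 3, the 2 member calls became 0 with no filter, 0 with the replicate block, 0 with only the 2 groups compared and 1 (NEFL) with no variance trend, and ranged from 0 to 4 without single libraries. NEFL lost its call in 9 and NEFM in 13 of 20 alternatives, over log2 fold changes of -0.29 to -0.18 and -0.45 to -0.25, and neither changed direction. All genes called in set 3 numbered 1839, against 698 with no filter, 693 with the block, 360 with only the 2 groups, 3245 without NT libraries 1 and 4, and 163 to 5878 without single libraries. The cause of these changes was not tested.

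For all genes in set 2, the count of 2 became 1 with median-of-ratios scaling, no variance trend, the block or only the 2 groups, 6 without mitochondrially encoded genes, and 1 to 2 without single libraries. For set 3 against set 2, 82 became 42 with no filter, 17 with the block, 335 with only the 2 groups and 20 to 228 without single libraries. The members called there numbered 1 with only the 2 groups, against 0. The sources used here do not state whether equal replicate numbers mark paired libraries, and the main fits did not pair them. Deviations of same-numbered HUWE1 and NT libraries correlated at 0.000215 to 0.0521 in set 1, -0.481 to 0.0389 in set 2 and -0.0266 to 0.407 in set 3. The signs were mixed in sets 2 and 3, so these values do not settle whether libraries were paired there. With the block, set 1 gave 4597 genes and 5 members.

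Values near 0 that were not called changed sign. Without NT libraries 1 and 4, set 2 gave 0.00815 for NEFL, 0.0184 for TUBB3, 0.0412 for UCHL1 and 0.00229 for SNAP23, and set 3 gave 0.0765 for TUBB3 and 0.0221 for SYPL1. PTBP1 gave -0.00313 in set 3 without mitochondrially encoded genes. Without single libraries, the ranges in set 2 were -0.101 to 0.00571 for NEFL, -0.179 to 0.0204 for NEFM, -0.0255 to 0.128 for SYP, -0.0568 to 0.0680 for UCHL1, -0.0223 to 0.107 for UCHL3, -0.0833 to 0.0324 for REST, -0.174 to 0.0263 for PAX2 and -0.0569 to 0.0532 for SNAP23. In set 3 they were -0.0972 to 0.0440 for TUBB3 and -0.110 to 0.00316 for REST. For set 3 against set 2 they were -0.0398 to 0.00666 for TUBB2B and -0.0819 to 0.0216 for REST, and in set 1 -0.108 to 0.0436 for PRPH. Depth is unknown, so the counting error of low members such as STMN2 and MAP2 is not known.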
